A study of Mus musculus with 14 samples.

Results

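The Lhx5, Nppc and Trp73 glutamatergic neurons were a small set of neurons from the lateral hypothalamic area, and 123 barcodes met their rule of the 9891 kept for analysis and the 28410 in the deposited tables. A barcode stands for 1 captured cell, and its RNA is counted as unique molecular identifiers (UMIs), 1 per captured transcript. A member had at least 1000 UMIs, at most 20% of them from mitochondrially encoded (mt-) genes, and at least 1 UMI of Slc17a6, the vesicular glutamate transporter, with more of it than of the GABAergic genes Gad1, Gad2 and Slc32a1 together. It also had at least 2 UMIs of Lhx5, Nppc and Trp73 summed, more than of Pax6, Cngb3 and Plce1, and little Trh, Otp, Sim1, Fezf2, Fst, Tcf7l2 or Rspo3. The members were thus chosen by their own counts, so their levels of these genes describe the choice, and no test of members against other cells is given.

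Drop-seq, which captures single cells in droplets with barcoded beads and counts the 3′ ends of their transcripts, was run on lateral hypothalamic tissue punches from 14 male wildtype C57BL/6J mice, 1 library per mouse. Of these mice 7 had a control chow matched in taste to the high fat diet and 7 had the high fat diet, all with free access and on a reversed light cycle. The sources used here do not give age, time on the diet or body weight. Sequencing used 2 pools on separate lanes: pool 1 held 4 control and 4 high fat diet mice, and pool 2 held 3 and 3.

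Lhx5 encodes a LIM homeodomain transcription factor that patterns the developing forebrain and diencephalon, and Lhx1 is its closest relative. Nppc encodes C-type natriuretic peptide, which acts on the receptor Npr2 to raise cyclic GMP and is cleared by Npr3. Trp73 encodes p73, a relative of the tumour suppressor p53 that in the developing brain is best known from Cajal-Retzius cells, and Emx2, Tbr1 and Sostdc1 encode a homeodomain factor, a T-box factor of glutamatergic neurons and a secreted antagonist of BMP and Wnt signals.

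On GRCm38 (GENCODE M21) Lhx5 lies at chr5:120431699-120441223 on the plus strand, Nppc at chr1:86666291-86670571 on the minus strand and Trp73 at chr4:154056253-154140208 on the minus strand. Of the other markers, Emx2 lies at chr19:59458372-59465357, Sostdc1 at chr12:36314139-36318452 and Tbr1 at chr2:61802930-61814114, all on the plus strand. RefSeq promoters of 300 bases on GRCm38.p6 were found for Nppc, Trp73, Emx2 and Tbr1 of the 6 markers, and not for Lhx5 and Sostdc1. The promoters of Nppc and Trp73 are printed because these genes carry the main division among the members, and that of Tbr1 because its window holds 2 copies of a homeodomain core. Capitals mark TATAAA or TAATTA, searched on both strands, and each line runs 5′ to 3′ on the strand of the gene.
Nppc: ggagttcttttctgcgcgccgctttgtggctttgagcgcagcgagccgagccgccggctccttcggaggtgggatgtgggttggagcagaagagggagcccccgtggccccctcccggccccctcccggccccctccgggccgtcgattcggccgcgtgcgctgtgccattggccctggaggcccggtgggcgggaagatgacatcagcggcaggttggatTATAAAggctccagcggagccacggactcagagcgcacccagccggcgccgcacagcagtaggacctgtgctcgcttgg
Trp73 start site 1: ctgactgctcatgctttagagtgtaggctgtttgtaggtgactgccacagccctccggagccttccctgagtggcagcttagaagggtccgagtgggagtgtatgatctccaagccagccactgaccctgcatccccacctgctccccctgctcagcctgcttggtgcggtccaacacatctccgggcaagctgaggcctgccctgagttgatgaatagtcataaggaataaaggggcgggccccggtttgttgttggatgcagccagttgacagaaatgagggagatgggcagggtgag
Trp73 start site 2: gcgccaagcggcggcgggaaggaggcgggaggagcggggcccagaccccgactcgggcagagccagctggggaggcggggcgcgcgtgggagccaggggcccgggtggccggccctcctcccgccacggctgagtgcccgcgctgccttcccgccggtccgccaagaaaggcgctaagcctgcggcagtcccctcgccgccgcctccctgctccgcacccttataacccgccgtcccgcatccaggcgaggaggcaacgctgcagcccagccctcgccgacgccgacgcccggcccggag
Tbr1: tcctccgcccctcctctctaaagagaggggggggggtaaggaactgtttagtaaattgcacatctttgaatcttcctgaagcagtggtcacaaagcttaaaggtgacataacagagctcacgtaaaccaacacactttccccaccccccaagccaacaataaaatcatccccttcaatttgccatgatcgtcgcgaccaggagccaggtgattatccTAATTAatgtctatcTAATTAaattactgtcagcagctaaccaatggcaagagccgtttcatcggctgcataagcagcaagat
The Nppc window is chr1:86670524-86670823, minus strand, and its TATAAA begins at position -29 from the transcription start. The Trp73 windows are chr4:154097124-154097423 and chr4:154139826-154140125, both on the minus strand. These are alternative start sites of 1 gene, which counts of 3′ ends cannot tell apart. The Tbr1 window is chr2:61804203-61804502, plus strand. Emx2 (chr19:59458440-59458739, plus strand) held 1 TAATTA. Over all 32851 RefSeq promoters of this length, 5.29% held TAATTA and 13.6% held TATAAA. A match describes the letters and is not evidence of a bound site.

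Members came from 13 of the 14 mice. Control mice 1 to 7 gave 4, 4, 11, 16, 18, 1 and 2 of them, and high fat diet mice 1 to 7 gave 3, 10, 20, 14, 14, 6 and 0. The last of these mice had only 33 kept barcodes, so its 0 members allow a share of up to 9.09%. The median member had 5643 UMIs and 2757 genes, against 4449 UMIs in the 1555 other glutamatergic barcodes, 3625.5 in 3888 GABAergic barcodes and 1438 in 3055 oligodendrocyte barcodes. Of the 279 kept barcodes with at least 2 UMIs of the 3 genes, 57 had no Slc17a6, 35 did not have it above the GABAergic genes, 60 were removed by the Trh, Otp, Sim1, Fezf2, Fst, Tcf7l2 and Rspo3 limits and 4 by Pax6, Cngb3 and Plce1. No member shared its barcode sequence with another library. Scrublet, which scores likely doublets (2 cells under 1 barcode), called 1 of the 120 members it could examine and 83 of 9606 barcodes in all. Control mice 1 and 2 and high fat diet mouse 1, which stood apart in earlier work on these data, gave 4, 4 and 3 members and so did not enter the diet test of genes.

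The choice rests on few UMIs. Exactly 2 UMIs of the 3 genes were found in 60 members, 3 in 22, 4 in 21 and 5 or more in 20, with 11 as the highest sum. Just outside the threshold, 172 barcodes passed every other limit with 1 UMI. By level, the 3 markers outside the rule were ordered as the sum in these sets. Sostdc1 was at 137 CPM (UMIs of a gene per 1000000 UMIs) in members with 3 or more UMIs, 32.3 in members with exactly 2, 16.5 in barcodes with 1 and 10.4 in those with 0. Emx2 stood at 67.4, 41.1, 18.7 and 12.1 CPM in the same order, and Tbr1 at 65.1, 55.8, 35.3 and 23.4. By share of barcodes Tbr1 was not ordered so, with 23.8% of members with 3 or more UMIs and 25.0% of those with exactly 2, which were shallower (medians of 6282 and 4838 UMIs).

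All 6 markers of the label were seen more often in members than in other glutamatergic barcodes. Lhx5 had a UMI in 82.1% of members (95% Clopper-Pearson interval 74.2 to 88.4%), Nppc in 53.7% (44.4 to 62.7%) and Trp73 in 23.6% (16.4 to 32.1%), and these intervals cover counting error only. The same genes were seen in 18.8, 4.31 and 1.03% of other glutamatergic barcodes. In oligodendrocyte barcodes, which should lack them, Lhx5 was seen in 0.0327%, Nppc in 2.65% and Trp73 in 0 of 3055, which allows up to 0.0982%. With every barcode thinned to 1000 UMIs, Lhx5 was left in 31.7% of members and 4.31% of other glutamatergic barcodes, Nppc in 22.8 and 1.22% and Trp73 in 6.50 and 0.257%. Oligodendrocyte barcodes thinned alike held Lhx5 in 0.0327% and Nppc in 1.44%. At equal depth Nppc was thus no more common in other glutamatergic barcodes than in oligodendrocyte barcodes. The rule had taken the members out of the former and set no limit on Nppc in the latter. These shares therefore cannot tell whether Nppc in glutamatergic barcodes outside the members is background.

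The markers outside the rule were each seen in a minority of members. Emx2 had a UMI in 21.1% of members, 5.47% of other glutamatergic barcodes and 0.0327% of oligodendrocyte barcodes. Sostdc1 was at 22.0, 4.82 and 0.622%, and Tbr1 at 24.4, 9.32 and 0.0327%. Thinned to 1000 UMIs, the members and the other glutamatergic barcodes held Sostdc1 in 8.13 and 1.74%, Emx2 in 3.25 and 1.67% and Tbr1 in 3.25 and 2.25%, where the last differences are small.

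Summed per mouse in the 8 mice with at least 5 members, the 3 rule genes did not overlap between members and other glutamatergic barcodes. The choice of members by these genes favours this. Lhx5 ran from 194 to 345 CPM in members (median 258) and from 24.0 to 102 in the others (median 53.7). Nppc ran from 88.8 to 443 CPM (median 208) against 6.04 to 17.7 (median 10.2), and Trp73 from 26.2 to 72.6 (median 39.2) against 0 to 5.32 (median 1.42). Emx2, with 22.2 to 83.0 CPM in members (median 42.4) and 7.22 to 18.6 in the others (median 15.3), also did not overlap. A gene higher in members without overlap is higher in all 8 mice, which held for 0.863% of 10196 genes outside the rule. Sostdc1 was higher in members in 7 of 8 mice, at 9.85 to 142 CPM (median 84.7) against 0 to 31.8 (median 13.9), and Tbr1 in 7 of 8, at 24.2 to 105 (median 50.6) against 10.1 to 40.5 (median 22.8). Slc17a6 did not set them apart, at 1009 ± 157 CPM in members and 989 ± 126 in the others (SD, n = 8).

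**Figure D1:**
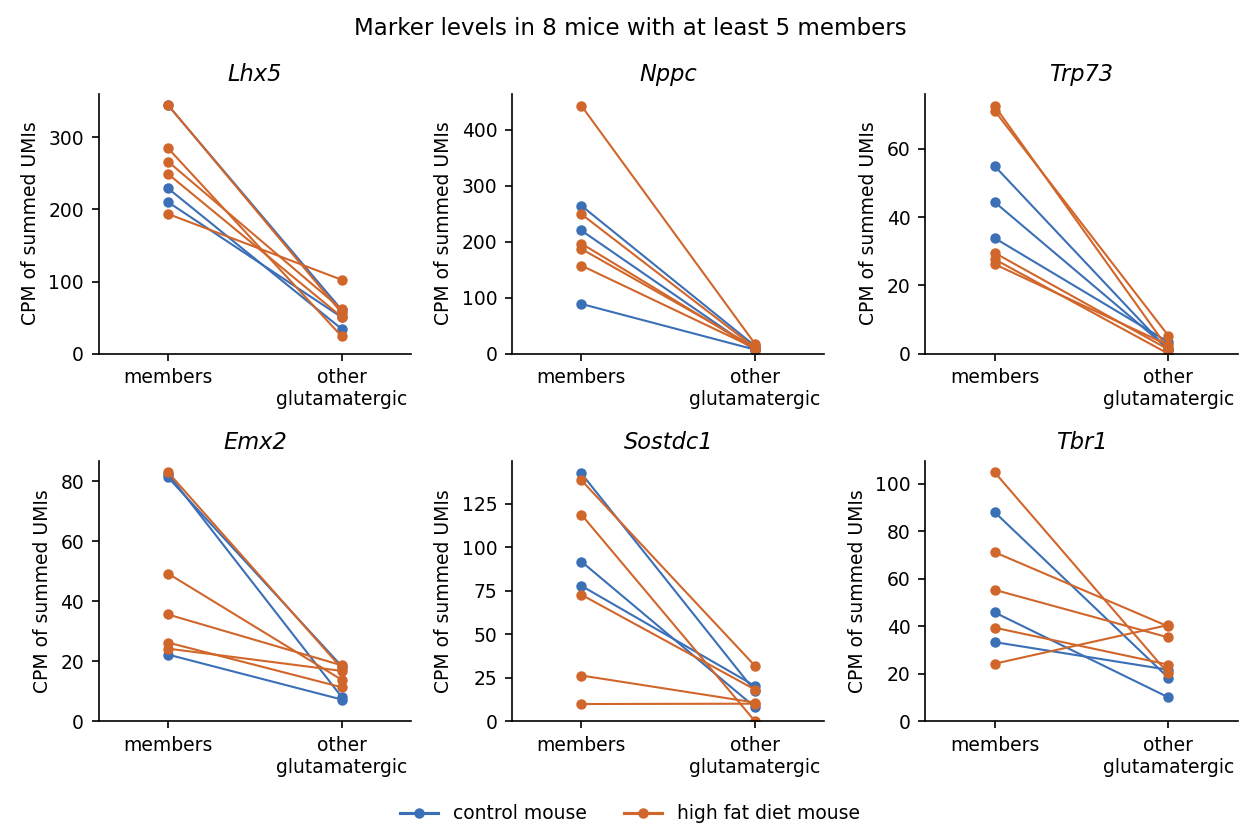
Level of the 6 markers in each of the 8 mice with at least 5 members, as CPM of UMIs summed over members (left) and over other glutamatergic barcodes (right). A line joins the values of 1 mouse and colour gives its diet; Lhx5, Nppc, Trp73 and Emx2 lie higher in members in 8 of 8 mice, and Sostdc1 and Tbr1 in 7 of 8.

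The members were not of 1 kind. Lhx5 was the only rule gene in 48 members (39.0%), Lhx5 and Nppc without Trp73 were found in 33, all 3 genes in 13, Nppc alone in 13, Nppc and Trp73 in 7, Lhx5 and Trp73 in 7 and Trp73 alone in 2. Members with a UMI of Nppc or Trp73 (75) and members with Lhx5 alone (48) were similar in depth, with medians of 5418 and 6046.5 UMIs. They differed in many other genes. This division was drawn after the values were seen, so it is described without a test.

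Calb2, which encodes the calcium-binding protein calretinin, differed most between them. It had a UMI in 12.0% of the 75 members with Nppc or Trp73 and in 58.3% of the 48 with Lhx5 alone, close to the 59.9% of other glutamatergic barcodes, at 118, 670 and 790 CPM. In the 7 mice with at least 3 members of each kind, it was seen more often in the Lhx5-alone members in 7 of 7. The 29 members with Trp73 had 0 Calb2 UMIs, which allows a share of up to 10.3%. Thinned to 1000 UMIs, Calb2 was left in 5.33% of members with Nppc or Trp73 and 39.6% of the rest. Tac1, the precursor of substance P, was seen in 2.67 and 22.9% and Calb1, calbindin, in 13.3 and 35.4%, and both were also more common in Lhx5-alone members after thinning. Most of this came from members at the threshold: the 33 Lhx5-alone members with exactly 2 UMIs of Lhx5 held 84 of the 85 Tac1 UMIs (386 CPM) and the 15 with 3 or more held 1 (9.16 CPM), and Calb1 was at 285 and 54.9 CPM in the same sets. Of the 89 Tac1 UMIs of all members, 37 came from 1 member and 25 from another, so these Tac1 levels rest on few barcodes. Alcam, a cell adhesion molecule, was at 116 CPM in members with Nppc or Trp73 and 284 CPM in Lhx5-alone members. Rbfox1 and Cntnap2 were seen in 29.3 and 33.3% against 70.8% for each, but their thinned shares, 10.7 and 12.0% against 14.6 and 16.7%, were closer.

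The opposite held for Sostdc1 and Emx2, which the label names as markers of all members. Sostdc1 had a UMI in 34.7% of members with Nppc or Trp73 and 2.08% of those with Lhx5 alone, beside 4.82% of other glutamatergic barcodes, and was seen more often in the former in 7 of 7 mice. In control mice 3, 4 and 5 it was seen in 1 of 4, 3 of 9 and 6 of 13 members with Nppc or Trp73, and in high fat diet mice 2 to 6 in 2 of 7, 1 of 10, 3 of 9, 4 of 7 and 2 of 5. In these 8 mice no Lhx5-alone member had a Sostdc1 UMI. Emx2 was at 30.7 and 6.25%, also more often in 7 of 7 mice. Thinned to 1000 UMIs, Sostdc1 was left in 13.3% and 0 and Emx2 in 4.00 and 2.08%, so at equal depth the gap of Emx2 was small. Trbc2, a T cell receptor constant segment, was found in 22.7% of members with Nppc or Trp73 and in 0 of the 48 others, which allows up to 6.25%. Flrt2, an adhesion protein, and Cplx2, a complexin of synaptic vesicle fusion, followed with 45.3 against 16.7% and 86.7 against 56.3%. The peptide gene Nts, for neurotensin, was at 30.7 and 6.25%.

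Tbr1 did not follow Sostdc1 and Emx2. It was seen in 20.0% of members with Nppc or Trp73 and in 31.3% of Lhx5-alone members, at 58.9 and 64.2 CPM, and in 9.32% of other glutamatergic barcodes at 21.8 CPM. The 15 Lhx5-alone members with 3 or more UMIs had Tbr1 in 26.7%, Calb2 in 40.0%, and no UMI of Emx2, Sostdc1 or Nts. The 46 members with both Lhx5 and Nppc had Emx2 in 43.5%, Sostdc1 in 41.3% and Calb2 in 17.4%, and the 20 with Nppc but no Lhx5 had Sostdc1 in 25.0%, Emx2 in 10.0% and Tbr1 in 5.00%, at a median of 3738.5 UMIs. Emx2 was thus seen most often in the members with both Lhx5 and Nppc. In Lhx5-alone members Emx2 was found in 3 of 48 and Sostdc1 in 1 of 48, counts too low to set them above or below the 5.47 and 4.82% of other glutamatergic barcodes. The label's 6 markers were unevenly spread over the 123 members.

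**Figure D2:**
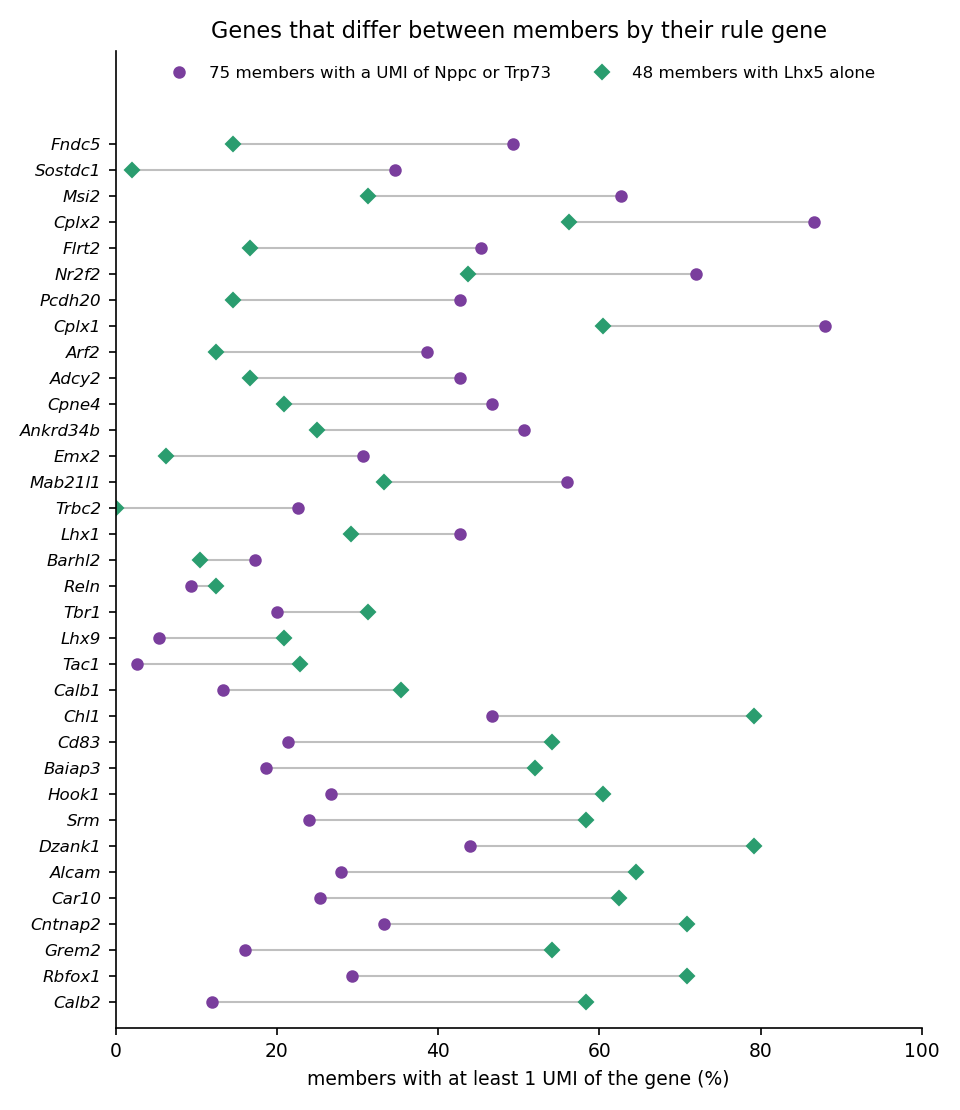
Share of members with at least 1 UMI of each gene, for 75 members with a UMI of Nppc or Trp73 (circles) and 48 members with Lhx5 alone (diamonds). Genes are ordered by the difference; Calb2 (12.0 and 58.3%) and Sostdc1 (34.7 and 2.08%) lie near opposite ends, and the genes were chosen for their difference.

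Against other glutamatergic barcodes of the same mice, the genes highest in members included Sostdc1, Lhx1, Mab21l1 and Cplx1, and the lowest included Oxt, Sncg and Tac1. The median over 8 mice of the log2 ratio of CPM + 10 (an added 10 CPM, which shrinks low genes) was over 1 for 30 of 10196 genes (0.294%) and under -1 for 252 (2.47%). It was above 0 in all 8 mice for 88 (0.863%) and below 0 in all 8 for 264 (2.59%), and the median gene was at -0.08. The sums of members were small, and a low gene is often at 0 in them. The members' counts made the choice, so these values describe them. The comparison group holds the glutamatergic barcodes that the limits on Trh, Otp, Sim1, Fezf2, Fst, Tcf7l2 and Rspo3 kept out of the members. The part of these limits in the lowest ratios was not tested.

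Of the 20 highest genes outside the rule, Sostdc1 came first at 1.69. Lhx1, the relative of Lhx5, was at 1.51 and higher in 8 of 8 mice, with 113 ± 51.4 CPM in members and 39.3 ± 13.5 in the others (SD, n = 8). Barhl2, a homeodomain factor, was at 1.28 (7 of 8 mice), Scrt1, a zinc-finger repressor of neurons, at 1.36 (6 of 8) and Mab21l1 at 1.44 (8 of 8). Cplx1, a complexin, was at 1.45 and did not overlap, with 657 ± 232 CPM in members and 230 ± 75.2 in the others. Erbb4, a receptor for neuregulins, was at 1.30 (8 of 8), and Ppargc1a, a coactivator of mitochondrial genes, at 1.28 (8 of 8). Hcrtr2, a receptor for the hypocretin peptides, was at 1.20 (7 of 8), with 37.3 ± 22.4 and 10.8 ± 5.48 CPM.

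Cpne4, a copine, at 1.50, the protocadherin Pcdh20 at 1.34, the polysialyltransferase St8sia4 at 1.32, and the potassium channel genes Kcnmb2 and Kcnb2 at 1.37 and 1.24 were also among the 20. Kcnmb2 was higher in only 5 of 8 mice and Kcnb2 in 6 of 8. The peptide gene Grp, gastrin-releasing peptide, was at 1.44 (6 of 8 mice) with a UMI in 12.2% of members. Stk32a, F730043M19Rik, Galnt14 and 1500016L03Rik stood between 1.16 and 1.28. Pvalb, parvalbumin, was at 1.58 but higher in only 5 of 8 mice, and 1 member held 47.7% of its UMIs.

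Of the 10 lowest genes 4, Tac1, Oxt, Hcrt and Cartpt, encode peptides of hypothalamic neurons. Tac1 was at -2.94 and lower in 8 of 8 mice, with 108 ± 193 CPM in members and 397 ± 194 in the others (SD, n = 8). Of the 89 Tac1 UMIs in members, 62 were in control mouse 4. Oxt, oxytocin, was at -3.58, but this rests on few barcodes of the comparison group: 26 of the 1555 held its 6725 UMIs, up to 2348 in 1 barcode. By share of barcodes Oxt was not lower in members, at 2.44% (1 UMI in each of 3 members) against 1.67%. Sncg, gamma-synuclein, was at -3.21, Cryab, a small heat shock protein, at -3.01, and Rprm at -2.98. Cartpt was at -2.78, lower in 6 of 8 mice, and Synpr, a synaptic vesicle protein, at -2.77. Mal, which encodes a myelin protein, was at -2.54, and the 7 oligodendrocyte markers summed to 189 to 387 CPM in members and 452 to 2888 in the others. The part of myelin RNA in these values was not tested.

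**Figure D3:**
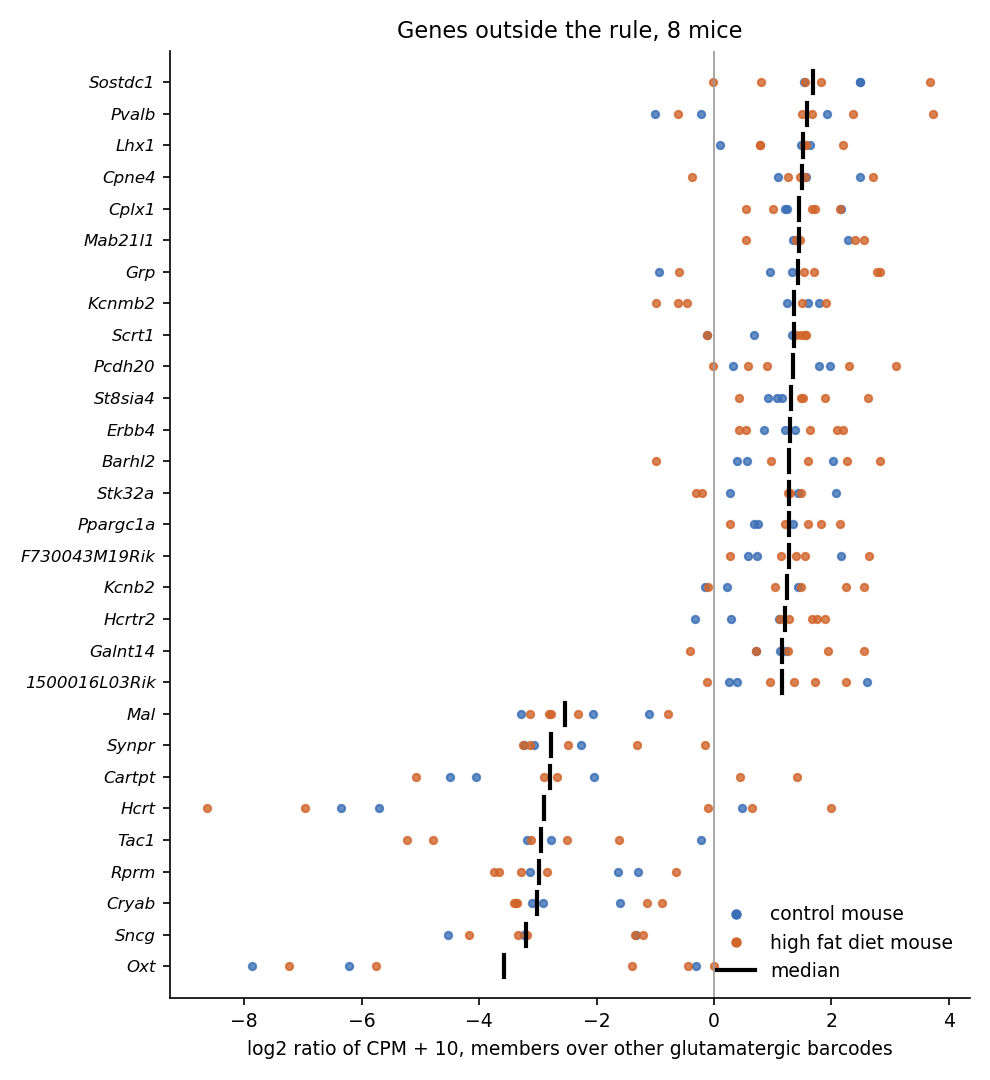
Log2 ratio of CPM + 10, members over other glutamatergic barcodes, for the 20 highest and 9 of the 10 lowest genes outside the rule. Each point is 1 of 8 mice, coloured by diet, and a bar marks the median; Sostdc1 has the highest median (1.69) and Oxt the lowest (-3.58), and several genes, among them Pvalb, Kcnmb2, Grp, Hcrt and Cartpt, have points on both sides of 0.

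Hcrt, the hypocretin precursor, was at -2.90, but its values were split. Of the members, 3 (in high fat diet mice 3 and 4 and control mouse 5) held 1695, 3535 and 4046 Hcrt UMIs, which is 99.0% of all Hcrt UMIs of members, and the rest held at most 5. They had 0 to 3 Nppc UMIs and 0 to 2 Lhx5 UMIs, and Scrublet called none of the 3. They are members by the rule, but whether they are the same kind of neuron as the other members is unclear. Among other glutamatergic barcodes 62 had over 100 Hcrt UMIs. Hcrt was seen in 46.3% of members, 36.1% of GABAergic and 26.6% of oligodendrocyte barcodes, so a few Hcrt UMIs are a background here.

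The families of the marker genes were detected unevenly in members. Of 18 LIM homeobox genes and partners, 12 had a UMI in members, and Lhx3, Lhx4, Lhx8, Isl2, Lmx1a and Lmx1b had none. After Lhx5 and Lhx1 the highest were the partners Ldb2 (96.5 ± 49.2 CPM), Lmo4 (72.6 ± 68.3), Lmo3 (45.0 ± 66.8) and Ldb1 (43.1 ± 16.3), and the values per mouse of each overlapped those in the others (SD, n = 8). In the others Ldb2 was at 82.7 ± 9.70 CPM and Lmo4 at a mean of 108. Of the T-box and Emx genes only Tbr1 and Emx2 had a UMI, of 7.

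Among 16 genes of the thalamic eminence and Cajal-Retzius cells, 14 had a UMI in members. Of these, Reln, the secreted protein reelin of Cajal-Retzius cells, was at a median ratio of 1.01 with a UMI in 10.6% of members and 2.32% of the others, while Ebf1, Ebf2 and Ebf3 were at -1.45, -0.84 and -0.48. Eomes and Nhlh1 had none. Barhl1, of the subthalamic list, and Foxa1 and Foxa2, of the mammillary list, also had no UMI in members. They were in only 0.257, 0.707 and 0% of the others, so their absence does not set members apart. Of 4 ranked subthalamic genes outside the rule, 2 had a ratio over 1 and 1 under -1. Of 6 ranked mammillary genes outside the rule, 1 was over 1 and 3 under -1. Foxb1 had 2 UMIs and the cortical transporter Slc17a7 had none.

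The receptors and enzymes of natriuretic signalling were low. Of 16 genes, 11 had a UMI in members. Nppc, by which the members were chosen, was the only one whose ratio passed 1. Pde1a, a phosphodiesterase that breaks down cyclic nucleotides, followed at 114 ± 45.1 CPM, with 90.6 ± 17.4 in the others (SD, n = 8). Npr2, the receptor of C-type natriuretic peptide, had 7 UMIs in 7 of 123 members (5.69%) and was in 4.50% of other glutamatergic barcodes, Npr3 had 5 UMIs, and Npr1 had none. Prkg2 and Prkg1, kinases driven by cyclic GMP, had 8 and 9 UMIs.

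Of the p53 family, Trp73 stood far above other glutamatergic barcodes in members, which were chosen by it. Its relatives, which the rule did not use, did not. Trp63 had no UMI and Trp53 was at 18.9 ± 10.8 CPM in members against 24.4 ± 8.46 in the others (SD, n = 8). Cdkn1a, the cell cycle inhibitor that p53 family proteins activate, was at 47.2 ± 54.8 and 14.4 ± 5.55 CPM, higher in 5 of 8 mice, and Mdm2, which targets p53 for breakdown, at 40.7 ± 30.5 and 27.7 ± 6.30, higher in 3 of 8. Ccng1 was at 36.1 and 33.5 CPM and Bax at 26.3 and 32.0, and neither separated members from the others.

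Of 21 genes for Wnt and BMP antagonists and receptors, 13 had a UMI in members. Sfrp2, a secreted Wnt antagonist, was at 38.4 ± 20.7 CPM in members and 13.0 ± 6.62 in the others, higher in 8 of 8 mice. Dkk3, a member of the Dickkopf family, was at 39.9 ± 28.4 and 89.7 ± 14.6, lower in 8 of 8. Bmpr2 was at 20.2 and 32.7 CPM and Bmpr1a at 16.7 and 21.6.

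Synaptic and receptor genes were mostly close to other glutamatergic neurons. Gria2, the AMPA receptor subunit that limits calcium entry, was at 884 ± 260 CPM in members and 855 ± 103 in the others (SD, n = 8), and Gria3 at 84.5 and 142, lower in 8 of 8. Of the feeding receptors Ntrk2, the BDNF receptor, was highest at 212 ± 39.7 CPM against 252 ± 31.4, Ghsr, Gipr, Mc3r and Drd2 had no UMI, and the neuropeptide Y receptor gene Npy2r was at a ratio of -1.64. Among peptide genes, Penk was at 239 ± 202 and 286 ± 105 CPM, and Adcyap1, PACAP, at 24.5 and 102, lower in 8 of 8. The 7 astrocyte markers summed to 867 to 1534 CPM in members and 620 to 936 in the others; 1 of them, Aldoc, an aldolase, gave 1102 ± 197 CPM in members at a ratio of 0.67 (8 of 8 mice), Aqp4 and Gfap had no UMI, Gja1, a gap junction protein, was at 24.5 and 2.09 CPM with a UMI in 6.50% of members and 1.22% of the others (10 of its 21 UMIs in 1 member), and the part of astrocyte RNA in this sum was not tested. The 7 GABAergic markers summed to 77.7 to 387 CPM in members and 104 to 258 in the others, with Dlx1 and Dlx6os1 at 0.

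By the pattern over the 1678 glutamatergic barcodes, no gene was close to the sum of Lhx5, Nppc and Trp73. The highest Pearson r on log CPM was 0.28, for Ap1s2, a subunit of a clathrin adaptor, then 0.27 for Chchd10 and 0.25 for Mab21l1. Sostdc1, Cox5a, Slc25a3, Emx2 and Atp5b stood between 0.21 and 0.23. These barcodes share libraries and depth, so the values are descriptions. Ap1s2 had 978 ± 400 CPM in members and 421 ± 51.4 in the others (SD, n = 8) without overlap, and Chchd10, Cox5a, Slc25a3 and Atp5b encode mitochondrial proteins.

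Diet was not part of the rule and could be tested over mice. The share of members among kept barcodes was 0.501 to 1.59% in control mice (median 1.25%) and 0 to 2.401% in high fat diet mice (median 1.45%), and the groups overlapped. The means were 1.10 ± 0.413% and 1.23 ± 0.867% (SD, n = 7 each), a difference of 0.132 points (two-sided exact permutation p = 0.725). Of glutamatergic barcodes the members made up 2.94 to 25% in control mice (median 8.27%) and 0 to 20.3% in high fat diet mice (median 7.18%). The means were 9.47 ± 7.62% and 7.81 ± 6.93% (SD, n = 7 each; exact permutation p = 0.670). Within pool 1 the control and high fat diet means of the share of kept barcodes were 0.884 and 0.948% (exact permutation p = 0.914), and within pool 2 they were 1.39 and 1.61% (p = 0.8). Of glutamatergic barcodes they were 10.2 and 4.52% in pool 1 (exact permutation p = 0.4) and 8.57 and 12.2% in pool 2 (p = 0.5), so the direction differed between pools. The value of 25% came from control mouse 7, with 2 members among 8 glutamatergic barcodes, and without that mouse the difference was 0.92 points, the other way.

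**Figure D4:**
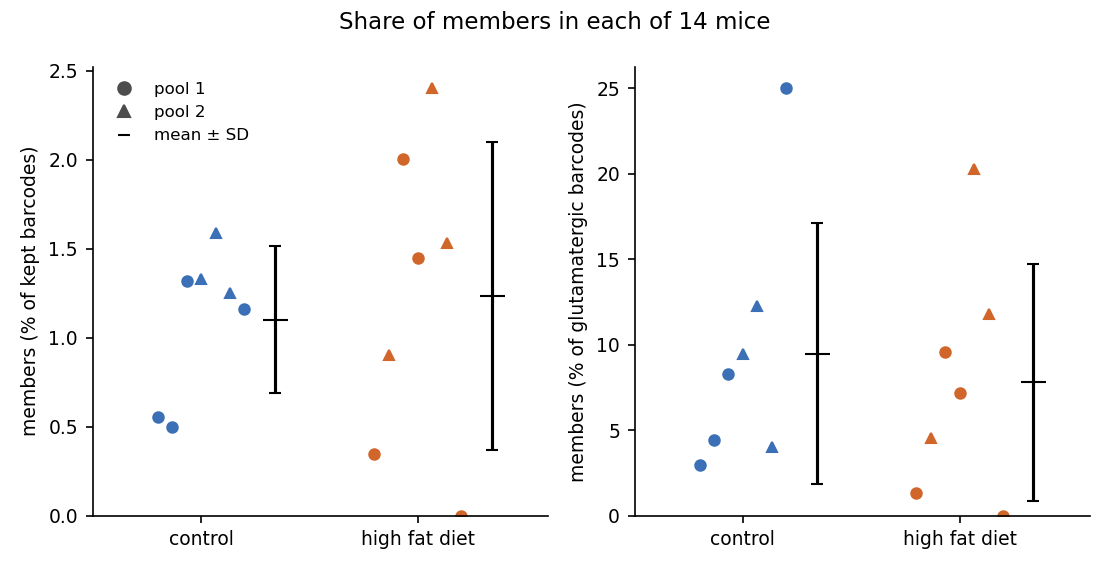
Members as percent of kept barcodes (left) and of glutamatergic barcodes (right) in 7 control and 7 high fat diet mice, with the mean and SD of each diet and the sequencing pool as symbol. The diets overlap in both panels, and the highest point on the right is 25%, from a mouse with 8 glutamatergic barcodes.

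The depth of members did not differ by diet beyond the spread between mice. The geometric means of the median UMIs per member were 6483 in 3 control and 5619 in 5 high fat diet mice, a ratio of 0.867 (exact permutation p = 0.429, where the smallest p possible is 0.0179).

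No gene passed the diet test within members. Counts summed over the members of 7 mice with at least 10 of them (control 3, 4 and 5, and high fat diet 2 to 5, 76273 to 147577 UMIs each) were tested with edgeR's quasi-likelihood test with pool as covariate. Of 2238 genes 0 passed an adjusted p of 0.05 (percent called 0), 90 had an unadjusted p under 0.05, and the smallest Benjamini-Hochberg adjusted p was 0.917. DESeq2 and limma voom also called 0. In counts simulated from these sums, the same test called 96% of genes changed 4-fold and 56% of those changed 2-fold. The simulation gave every gene the same dispersion (spread between mice beyond counting) and no pool difference. It does not show how often such changes are found in genes that vary more between mice. Pool 1 held 1 of the 3 control mice. Of the rule's genes Lhx5 was at 344, 229 and 210 CPM in the control mice and 249, 345, 266 and 285 in the high fat diet mice, a log2 difference of 0.11 (SE 0.26). Nppc was at 88.8, 220 and 264 CPM and 197, 187, 157 and 249, a log2 difference of 0.19 (SE 0.32), and Slc17a6 differed by -0.06 (SE 0.18). All 3 overlapped between diets.

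The genes with the smallest p are given as values only. Mrps14, a mitochondrial ribosomal protein, was at 111, 101 and 217 CPM in the control mice and 275, 236, 266 and 403 in the high fat diet mice, and Hibadh, a valine catabolic enzyme, at 66.6 to 115 and 128 to 249. These 2 did not overlap between diets. Over all genes tested, 4.87% did not overlap. Kcnip4, a potassium channel interacting protein, differed by 1.06 (log2, SE 0.30), Elavl3, a neuronal RNA-binding protein, by 0.77 and Plcb4, a phospholipase, by 0.59, with overlap. Downward, Timp2, an inhibitor of metalloproteinases, was at 766, 440 and 529 CPM in control mice and 302, 404, 399 and 356 in high fat diet mice without overlap. Tpr, of the nuclear pore, and Ik, a splicing factor, differed by -0.73 and -0.68 without overlap. Hpcal1 and Marcks, a calcium sensor and a membrane-bound substrate of protein kinase C, differed by -1.30 and -1.0 with overlap. Hpcal1 had 544 CPM in control mouse 3 and 202 and 94.9 in the other control mice, against 65.6 to 177 in the high fat diet mice. Without control mouse 5, 3 genes passed: Hpcal1 (-1.51), Nnat (1.52) and Tac1 (-2.30). Of the 89 Tac1 UMIs of members, 62 were in control mouse 4, 37 of them in 1 member. Without control mouse 3, only Calb1 passed (-2.83).

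**Figure D5:**
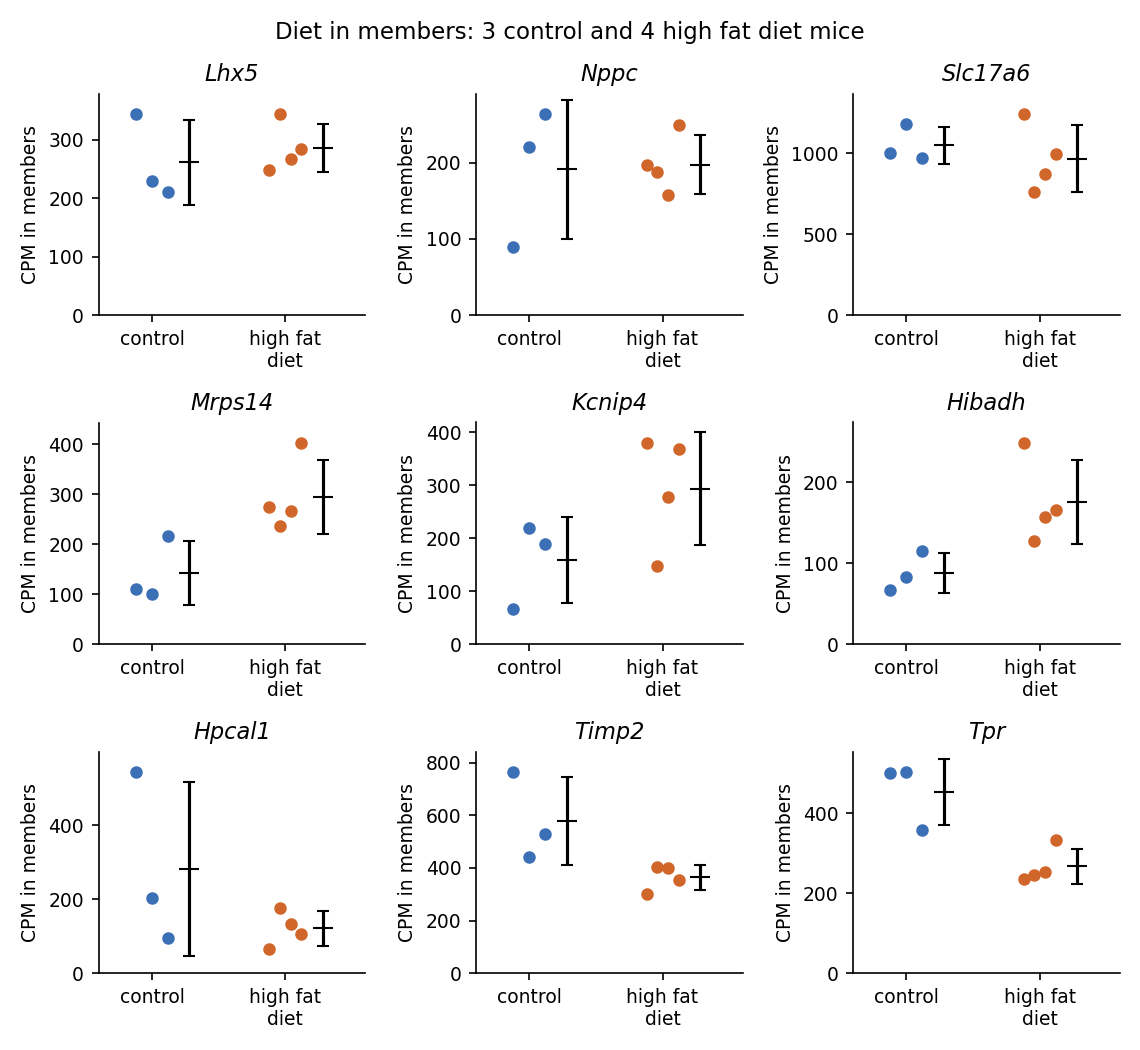
Level in members (CPM) of Lhx5, Nppc, Slc17a6 and the 3 genes with the smallest p in each direction of the diet test, in 3 control and 4 high fat diet mice, with mean and SD beside the points. No gene passed; of those drawn Mrps14, Hibadh, Timp2 and Tpr do not overlap between diets.

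The gene lists held few tested members, and none of their genes passed. All 5 tested ionotropic glutamate receptor genes had a negative difference, from -0.32 for Gria2 to -1.39 for Grin2b (NMDA receptor subunit), with a median of -0.62 beside 0.003 over all genes. Over all 2238 genes tested, 49.4% were lower and 4.87% did not overlap between diets. Grin2b had the smallest p of the 5 (edgeR, unadjusted p = 0.00926, adjusted p = 0.998). Grin2b was at 115 to 165 CPM in control mice and 24.2 to 98.5 in high fat diet mice, and Grin1 at 133 to 220 and 78.7 to 121, both without overlap. Pde1a was at 111 to 197 and 91.8 to 98.5 CPM, also without overlap, with a log2 difference of -0.66 (SE 0.38). Of 11 tested peptide genes 6 were higher and 5 lower.

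A diet difference that departed from that of other glutamatergic neurons was called for 1 of 5812 genes tested (percent called 0.0172). It was Npy, neuropeptide Y, with a fitted difference of -12.05 on the log2 scale (edgeR, adjusted p = 5.06e-11), which depends on zeros and is no measure of size. The 67 high fat diet members had 0 Npy UMIs in 389139, which allows up to 7.71 CPM, and the 56 control members had 212, or 535 CPM. Of these, 190 came from 1 member of control mouse 5 with 19388 UMIs, 18 of Slc17a6, 8 of Gad1 and 5 of Lhx5, whose kinship to the other members is likewise unclear. Without that barcode, control members held 22 Npy UMIs in 3 of 55 members (58.3 CPM), and no gene passed. These sums pool the members of all mice of a diet and leave out the spread between mice. Npy was at 28.1 CPM in other control and 20.8 CPM in other high fat diet glutamatergic barcodes. The next smallest p values gave Mpped2, Cpd, Mesdc2 and Nbn downward and 3110047P20Rik, Rnf216, Ptgds, Bap1 and Samd10 upward, all with an adjusted p of at least 0.489. Lhx5 and Nppc differed by 0.13 (SE 0.34) and -0.14 (SE 0.51).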

How the data were processed

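The deposited values are raw UMI counts per gene and barcode, 1 table per mouse. The submitters' processing notes name mm10 (GRCm38) as build and, as tools, Picard 2.2.4, STAR 2.4.2a and bcl2fastq 2.18.0.12. For the UMI counter, its annotation and strand rule, and the choice of barcodes: not given in the sources used here. The members and lists were chosen with earlier results of these data known, and the genes that divide the members were chosen after their values were seen.

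Depth per library was 147470 to 5611524 UMIs. Mice were grouped by diet from the labels, and their replicate numbers follow listing order. Shares were compared by exact permutation over mice. Sums over the members of a mouse went through edgeR 4.0.16 under R 4.3.3 (robust quasi-likelihood fit, TMM, filterByExpr, pool as covariate), and members against other glutamatergic barcodes by diet with mouse as a block. DESeq2 1.42.0 and limma 3.58.1 were alternatives. CPM take all UMIs of the summed barcodes as total. Oligodendrocyte barcodes had at least 10 UMIs of 7 markers and at most 1 of 8 neuron markers. Scrublet ran in scanpy 1.11.5 on mice with at least 300 kept barcodes. Named genes were the markers and rule genes, the 5 smallest p in each direction, the 20 highest and 10 lowest ratios among genes with at least 50 UMIs, up to 6 per list by CPM, and the 8 most alike; Reln, the Ebf genes, Npr1, Npr2, Npr3, Npy2r, Adcyap1 and Foxb1 were added after their values were seen. The test was checked on simulated counts of the 2238 genes, with the same dispersion for every gene (2 false calls). Some genes that these rules name are not reported here.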

Additional observations from a re-analysis of the deposited data

Results flagged for a closer look

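Of 24 groups of values examined for a sample far from the others, 1 had such a sample, and chance gives about 1 in 20. It was the share of members among glutamatergic barcodes in control mice, where control mouse 7 reached 25%, from 2 of 8 barcodes. The diet difference of Npy departed in members from that in other glutamatergic barcodes by -12.05 on the log2 scale, and 190 of the 212 Npy UMIs of members came from 1 barcode of control mouse 5.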

How the results depend on the processing

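The share of kept barcodes, higher in high fat diet mice by 0.132 points, ran from -0.0629 (without high fat diet mouse 5) to 0.337 when each mouse was left out. The difference in the share of glutamatergic barcodes (-1.66 points) ran from -3.74 to 0.924 when each mouse was left out, and was 1.65 in mice with at least 300 kept barcodes and 3.62 in pool 2 alone. No share passed its test under any alternative run. UMIs per member differed by -0.06 on the log10 scale, by 0.05 (0.0497) in pool 2 alone, and by -0.108 to -0.0208 when each mouse was left out.

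Diet genes within members numbered 0, and 0 to 3 when each mouse was left out. Diet by class genes numbered 1, 0 to 2 when each mouse was left out (0 without control mouse 5 or high fat diet mouse 4, and 2, Npy and Lypd1, without high fat diet mouse 5), 0 with DESeq2, and 0 without the member of over 100 Npy UMIs, an alternative chosen after seeing the data. The diet difference of Lhx5 was -0.18 in pool 1 alone. That of Nppc was -0.0004 (-0.000414) with no pool term, -0.12 in pool 2 alone, and -0.13 to 0.43 when each mouse was left out, and that of Slc17a6 was 0.0573 in pool 2 alone, and -0.163 to 0.0618 (0.0063 without high fat diet mouse 3) when each mouse was left out. Members minus others, Lhx5 was -0.10 in mice with at least 5 members, -0.14 in pool 1 alone and -0.0698 to 0.252 (-0.0511 without control mouse 5) when each mouse was left out. Nppc was 0.62 in pool 1 alone and -0.33 to 0.19, Slc17a6 was 0.39 in pool 2 alone and -0.204 to 0.0926 (0.0334 without control mouse 3, 0.062 without high fat diet mouse 4), and Ptgds was -1.80 in pool 1 alone. The cause of these changes was not tested, apart from Npy. Leaving out the barcodes of over 100 Hcrt UMIs, also chosen after seeing the data, moved no count.

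No paired analysis was possible because the mice carry unique numbers and the replicate numbers follow listing order. Mice with at least 20 members and members with at least 3 UMIs were not run for genes, since too few mice were left, nor were the class fit without a pool term, which holds none, and UMIs per member in pool 1, with 1 control mouse. Members per mouse, at most 20, limit what the gene tests can detect.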
